A study of Mus musculus with 12 samples.

Results

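Replication licensing is the step that loads the helicase which will unwind DNA onto origins before S phase. It was read here from 10 genes, Mcm2, Mcm3, Mcm4, Mcm5, Mcm6, Mcm7, Cdc6, Cdt1, Gmnn and Orc1, which are the helicase subunits, their loaders and the inhibitor of loading. These genes were listed by function, but with earlier results of these data known. They are 10 of 18193 genes on the arrays and have 26 of the 45037 probe sets tested, and for each gene the probe set with 1 symbol and the strongest mean signal across the 12 arrays was used. Lung endothelial cells (ECs) of NSG mice, a strain without mature lymphocytes or NK cells, were profiled on Affymetrix mouse genome arrays. There were 4 groups of 3 biological replicates. Control ECs came from age-matched healthy mice, and the other ECs from mice that had received MDA231-LM2 (MDA-MB-231-LM2) cells, a lung-tropic human breast cancer line, through the tail vein at 6-8 weeks of age and were studied 1, 2 or 3 weeks later. Cells were sorted as positive for CD31 and negative for GFP, which marks the cancer cells, for the blood cell antigens CD45 and CD11b, for EpCAM and for CD140a and CD140b. The study's NSG mice were female, and its methods do not give the number of mice behind an array.

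The values are log2 signals, so that a difference of 1 is a doubling, and they give the amount of RNA in the sorted cells as a whole. In such bulk RNA, fewer cells of a type and less RNA per cell cannot be told apart. The mean log2 signal of 12 pan-endothelial markers was between 12.84 and 12.99 in every array, and 0 of the 12 passed the limma test in any of the 6 comparisons, with 0 to 3 at an unadjusted p below 0.05. Gapdh has control probe sets at both ends of its transcript, and the group means of their log2 difference (3′ minus 5′), which grows as RNA degrades, were 0.52 in control, 0.47 at week 1, 0.35 at week 2 and 0.31 at week 3. This sign of RNA degradation was thus lowest at week 3 (range 0.24 to 0.40). Its week 3 range overlapped those of control (0.37 to 0.69) and week 2 (0.30 to 0.41) and lay below that of week 1 (0.42 to 0.53). Its part in the results was not tested. With 3 arrays per group, the number of arrays limits the precision of every value below.

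In G1, the origin recognition complex, of which ORC1 is the largest subunit, marks the origins on DNA. CDC6 and CDT1 then join it and load the ring of MCM2, MCM3, MCM4, MCM5, MCM6 and MCM7, the helicase of the replication fork. Geminin, the product of Gmnn, binds CDT1 from S phase to mitosis and thereby prevents an origin from being licensed again in the same cycle. Most ECs of the adult lung rest outside the cycle, in a state in which licensing proteins are known to be low.

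The promoters of these genes were searched for sequence motifs, as a description with no test. The genes were chosen for their part before S phase, so sites of S phase factors are not independent of that choice. E2F factors, which turn on many genes of S phase, bind sites close to TTTGGCGC, TTTCCCGC, TTTGCCGC and TTTCGCGC. These 4 octamers were looked for on both strands of the RefSeq promoter windows of build GRCm38.p6, from 250 bases before to 50 bases after a start. Mcm4 and Gmnn had no window. Of the 8 genes with one, 7 held an octamer. By window this was 7 of their 9, compared with 744 of all 32851 windows, or 2.26%. Mcm6 had 3 matches, Mcm3, Mcm5 and Mcm7 had 2 each, and Cdc6, Cdt1 and Orc1 had 1 each. Of the 2 windows of Mcm7, only the first held any. Matches on opposite strands overlapped in Mcm5 and Mcm6, and 1 match in Mcm7 overlapped a CCAAT box by its last base. A match is a run of letters in the sequence, not a measured binding site. The stretches with the matches are given 5′ to 3′ on the strand of the gene, with the matches in capitals, and the longer stretches of Mcm6 and Mcm2 are the 130 bases before the start in the gene with the most matches and in the gene with none.
Mcm3 (chr1:20820265-20820294, minus strand, in the first 50 bases after the start): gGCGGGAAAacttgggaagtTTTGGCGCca
Mcm5 (chr8:75109347-75109376, plus strand): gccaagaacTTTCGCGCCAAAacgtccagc
Mcm7 (chr5:138172030-138172059, minus strand): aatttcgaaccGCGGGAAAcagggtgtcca
Mcm7 (chr5:138171849-138171878, minus strand, in the first 50 bases after the start): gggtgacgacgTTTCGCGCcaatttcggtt
Cdc6 (chr11:98908002-98908031, plus strand): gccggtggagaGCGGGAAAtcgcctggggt
Cdt1 (chr8:122568035-122568064, plus strand, in the first 50 bases after the start): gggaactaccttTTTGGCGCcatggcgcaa
Orc1 (chr4:108579416-108579445, plus strand): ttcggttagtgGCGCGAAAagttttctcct
Mcm6 (chr1:128359706-128359835, minus strand): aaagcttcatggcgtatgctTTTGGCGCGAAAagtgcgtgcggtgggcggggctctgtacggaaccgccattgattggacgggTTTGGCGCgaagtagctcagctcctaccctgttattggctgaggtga
Mcm2 (chr6:88898781-88898910, minus strand, no match): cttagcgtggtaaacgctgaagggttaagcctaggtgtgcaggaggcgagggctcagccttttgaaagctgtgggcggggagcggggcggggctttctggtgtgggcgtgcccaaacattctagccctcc

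Other motifs of cell cycle genes were looked for in the same windows. A CCAAT box, the site of the factor NF-Y, was present in 6 of the 8 genes with a window. By window this was 7 of 9, compared with 37.4% of all windows. The element TTTGAA, found in promoters of genes that peak in G2 and mitosis, was present in 1 of the 8, Mcm2. By window this was 1 of 9, compared with 17.9% of all windows. In the printed stretch of Mcm2 it lies at positions -70 to -65 from the start.

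ECs of week 3 had more RNA of nearly all licensing genes than control ECs, and ECs of weeks 1 and 2 did not differ detectably from control. At week 3, 5 of the 6 helicase subunits, the loaders Cdc6 and Cdt1 and the inhibitor Gmnn rose, while Mcm4 and Orc1 did not pass the test (limma on each pair of groups, adjusted p below 0.05 over all probe sets). The 8 genes that rose are to be read against 433 of 18193 genes that rose in the same comparison, or 2.38%. The median log2 difference of the 10 genes was 1.12, and that of all genes was 0.03. The 3 week 3 arrays lay above the 3 control arrays for all 10 genes, which held for 17.2% of all genes. Because the genes were listed with earlier results of these data known, the shares of all genes here and below are a description. They are not an independent test of the list.

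**Figure D1:**
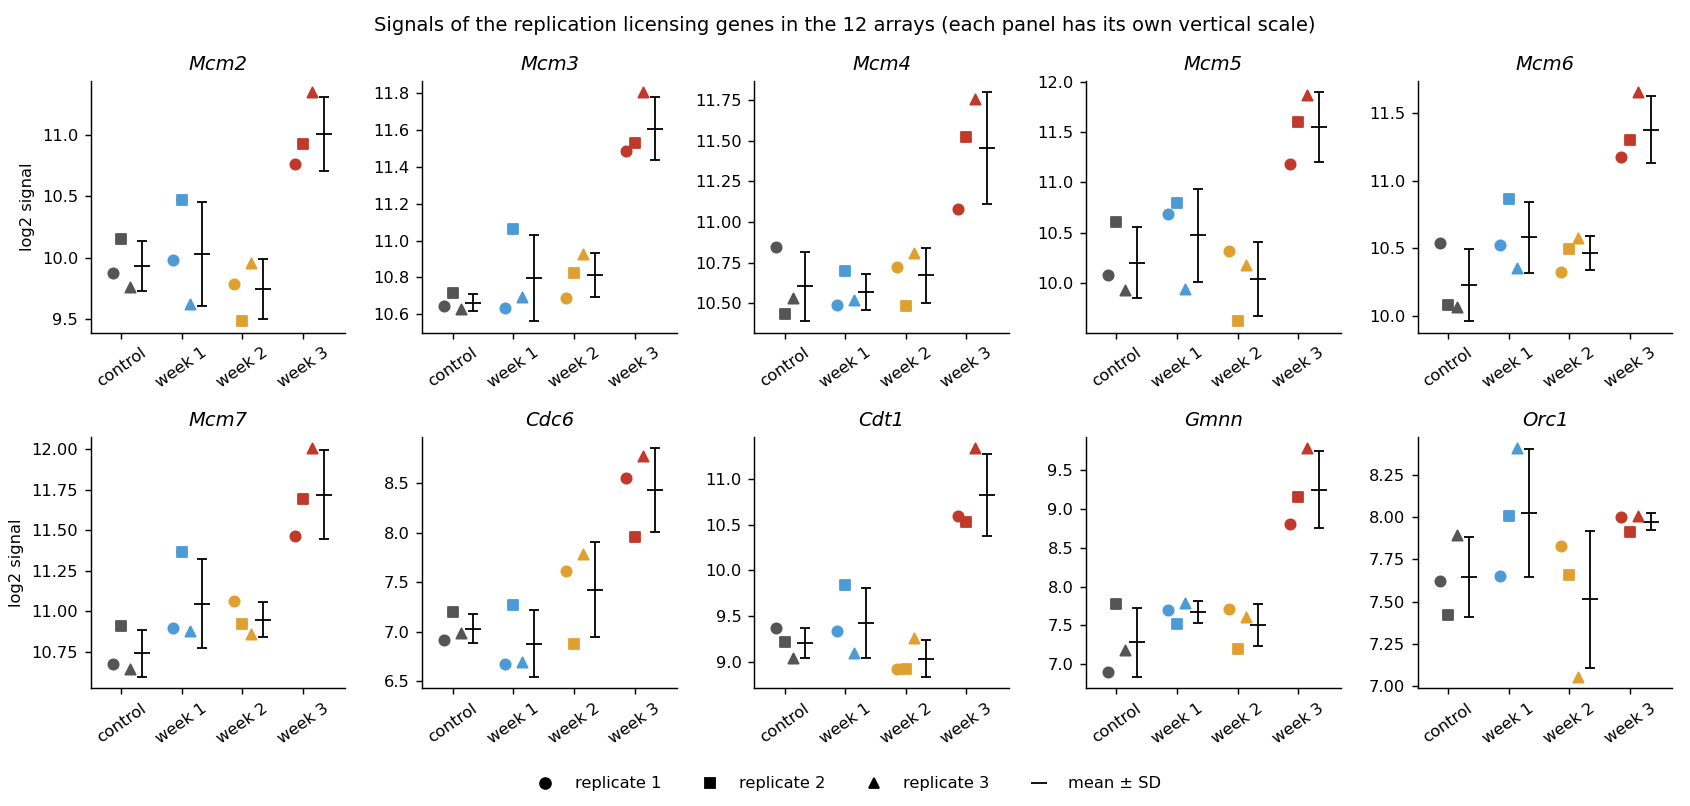
Log2 signal (vertical axis, with its own scale in each panel) of the 10 licensing genes by group (horizontal axis). Each point is 1 array, with the shape giving the replicate number, and bars are the mean ± SD of 3 arrays; the week 3 arrays lie above all other arrays in every panel except that of Orc1.

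Among the helicase subunits, Mcm5 had the largest difference. Its log2 signals were 10.08, 10.60 and 9.92 in control, 10.68, 10.80 and 9.94 at week 1, 10.32, 9.62 and 10.18 at week 2, and 11.18, 11.60 and 11.86 at week 3. Control, week 1 and week 2 overlapped throughout, and each week 3 array was higher than all of the other 9. The log2 difference of week 3 from control was 1.35 (standard error 0.23, adjusted p = 0.0263).

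Mcm6 and Mcm2 more than doubled. For Mcm6, the log2 signals were 10.53, 10.08 and 10.07 in control, 10.52, 10.86 and 10.35 at week 1, 10.33, 10.49 and 10.57 at week 2, and 11.17, 11.30 and 11.65 at week 3. For Mcm2, they were 9.88, 10.15 and 9.76 in control, 9.98, 10.47 and 9.62 at week 1, 9.79, 9.48 and 9.96 at week 2, and 10.76, 10.93 and 11.35 at week 3. In both genes, replicate 2 was the highest of the week 1 arrays and replicate 3 the highest of the week 3 arrays. The log2 differences of week 3 from control were 1.15 for Mcm6 (standard error 0.18, adjusted p = 0.0201) and 1.08 for Mcm2 (standard error 0.18, adjusted p = 0.0246).

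Mcm3 and Mcm7 rose by slightly less than a doubling. Mcm3 had log2 signals of 10.65, 10.71 and 10.63 in control, 10.63, 11.06 and 10.69 at week 1, 10.69, 10.83 and 10.93 at week 2, and 11.49, 11.53 and 11.80 at week 3. Its control arrays lay closest together of all 10 genes, with an SD of 0.05, and its difference of 0.94 had the smallest standard error of the members, 0.12, and the lowest adjusted p, 0.0098. Mcm7 had log2 signals of 10.68, 10.91 and 10.64 in control, 10.90, 11.37 and 10.88 at week 1, 11.07, 10.92 and 10.86 at week 2, and 11.46, 11.69 and 12.01 at week 3. Week 1 replicate 2 came within 0.10 of the lowest week 3 array, the smallest gap among the genes whose week 3 arrays were all higher. The difference of Mcm7 from control at week 3 was 0.98 (standard error 0.16, adjusted p = 0.0236).

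Mcm4 was the only helicase subunit that missed the threshold against control. Its log2 signals were 10.84, 10.43 and 10.53 in control, 10.49, 10.70 and 10.52 at week 1, 10.72, 10.48 and 10.81 at week 2, and 11.08, 11.52 and 11.75 at week 3. The week 3 arrays were again all higher than the other 9. The difference was 0.85 with a 95% confidence interval of 0.38 to 1.31 (standard error 0.20, adjusted p = 0.0633), an interval that overlaps those of the other 5 subunits. As a group, the 6 subunits had a median difference of 1.03 and differed from control by 0.85 to 1.35.

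**Figure D2:**
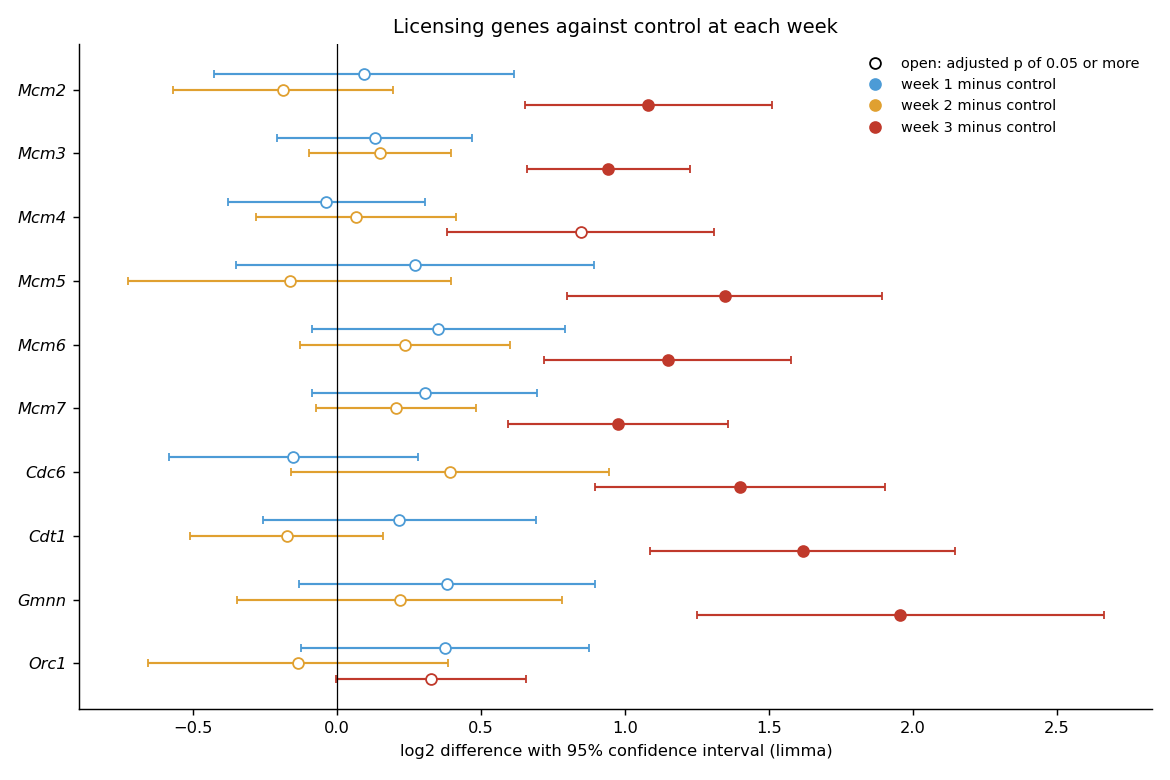
Log2 difference from control (horizontal axis) of each licensing gene at weeks 1, 2 and 3, with 95% confidence intervals from limma; filled points have an adjusted p below 0.05. The filled points are all of week 3 and lie between 0.94 and 1.96, and the points of weeks 1 and 2 lie between -0.19 and 0.39.

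Of the 3 genes of the loading machinery, Cdt1 and Cdc6 rose and Orc1 did not pass the test. Cdt1, which carries the helicase ring to the origin, had log2 signals of 9.37, 9.21 and 9.04 in control, 9.34, 9.84 and 9.09 at week 1, 8.92, 8.92 and 9.26 at week 2, and 10.60, 10.53 and 11.34 at week 3. The lowest week 3 array was 0.69 above the highest of the other 9, and the difference from control was 1.62, or 3.07-fold (standard error 0.23, adjusted p = 0.0126). Cdc6, the ATPase that joins the origin recognition complex before Cdt1 does, had log2 signals of 6.91, 7.20 and 6.98 in control, 6.68, 7.27 and 6.70 at week 1, 7.61, 6.88 and 7.78 at week 2, and 8.56, 7.96 and 8.78 at week 3. Replicates 1 and 3 of week 2 were above every control array, replicate 2 was not, and the lowest week 3 array was 0.17 above the highest of the others. Its difference from control at week 3 was 1.40 (standard error 0.21, adjusted p = 0.0179).

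Orc1 was the member with the smallest difference. Its log2 signals were 7.62, 7.42 and 7.90 in control, 7.65, 8.01 and 8.41 at week 1, 7.83, 7.66 and 7.06 at week 2, and 8.00, 7.91 and 8.01 at week 3. The highest array was week 1 replicate 3, and week 3 did not stand apart from week 1. The difference from control at week 3 was 0.33, with a 95% confidence interval that reached from just below 0 to 0.66 (standard error 0.14, adjusted p = 0.248). The second probe set of Orc1 had log2 signals of 7.37, 7.08 and 7.92 in control and 7.10, 7.59 and 8.29 at week 3, which overlapped (difference 0.20, standard error 0.33).

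Gmnn had the largest difference of the 10 genes. Its single probe set gave log2 signals of 6.90, 7.77 and 7.18 in control, 7.70, 7.52 and 7.79 at week 1, 7.71, 7.20 and 7.61 at week 2, and 8.80, 9.15 and 9.78 at week 3. The lowest week 3 array was 1.01 above the highest of the other 9, the widest such gap of the members. The difference from control was 1.96, or 3.88-fold, with a 95% confidence interval of 1.25 to 2.66 (standard error 0.30, adjusted p = 0.0182).

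Which genes passed changed when single arrays were left out. The 8 that rose at week 3 against control became 3 when control replicate 1 or control replicate 2 was left out and 2 when it was control replicate 3. The count was 3 without week 3 replicate 2, 4 without week 3 replicate 3, and 8 without week 3 replicate 1, in a set that gained Mcm4 and lost Cdc6. Mcm3 passed in all of these fits, and Cdt1 in all but that without control replicate 2. Gmnn lost the call without control replicate 1 or 3 or week 3 replicate 2, Mcm5 without control replicate 1 or 3 or week 3 replicate 2 or 3, and Mcm6 without control replicate 2 or 3 or week 3 replicate 2 or 3. Mcm2 and Mcm7 passed only without week 3 replicate 1, and Cdc6 only without week 3 replicate 2 or 3. The share of all genes that passed in each of these fits was not counted. A fit with fewer arrays also has less power, so whether the lost calls are particular to these genes was not tested. The differences themselves stayed above 0, between 0.83 and 2.20 for the 8 genes when any single array was left out.

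The genes can also be read through their other probe sets. Of the 26 probe sets, all 26 were higher at week 3 than in control, with log2 differences of 0.19 to 1.96, and 16 passed the test. Probe sets of the same gene are not separate results, and the share of all probe sets that passed was not counted. All 5 probe sets of Mcm3 and all 4 of Mcm7 had differences of 0.74 to 1.21. The second probe set of Mcm4 differed by 0.74 (adjusted p = 0.0873) and thus also missed the threshold. Those of Mcm2 and Mcm5 differed by 0.91 and 1.25 and missed it too (adjusted p = 0.0519 and 0.0597). So did a probe set of Mcm3 and another of Mcm7 (adjusted p = 0.0924 and 0.0519). The 3 lowest differences were 0.19 for the third probe set of Mcm6, with log2 signals of 6.42 to 6.87, 0.20 for the second of Orc1, with 6.40 to 8.29, and 0.23 for the third of Cdt1, with 5.88 to 6.48. The median of all signals was 8.13, and the probe set used for Orc1 lay below it in all arrays but 1, that of Cdc6 in all but 2, and that of Gmnn in all 9 arrays of control and weeks 1 and 2.

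**Figure D3:**
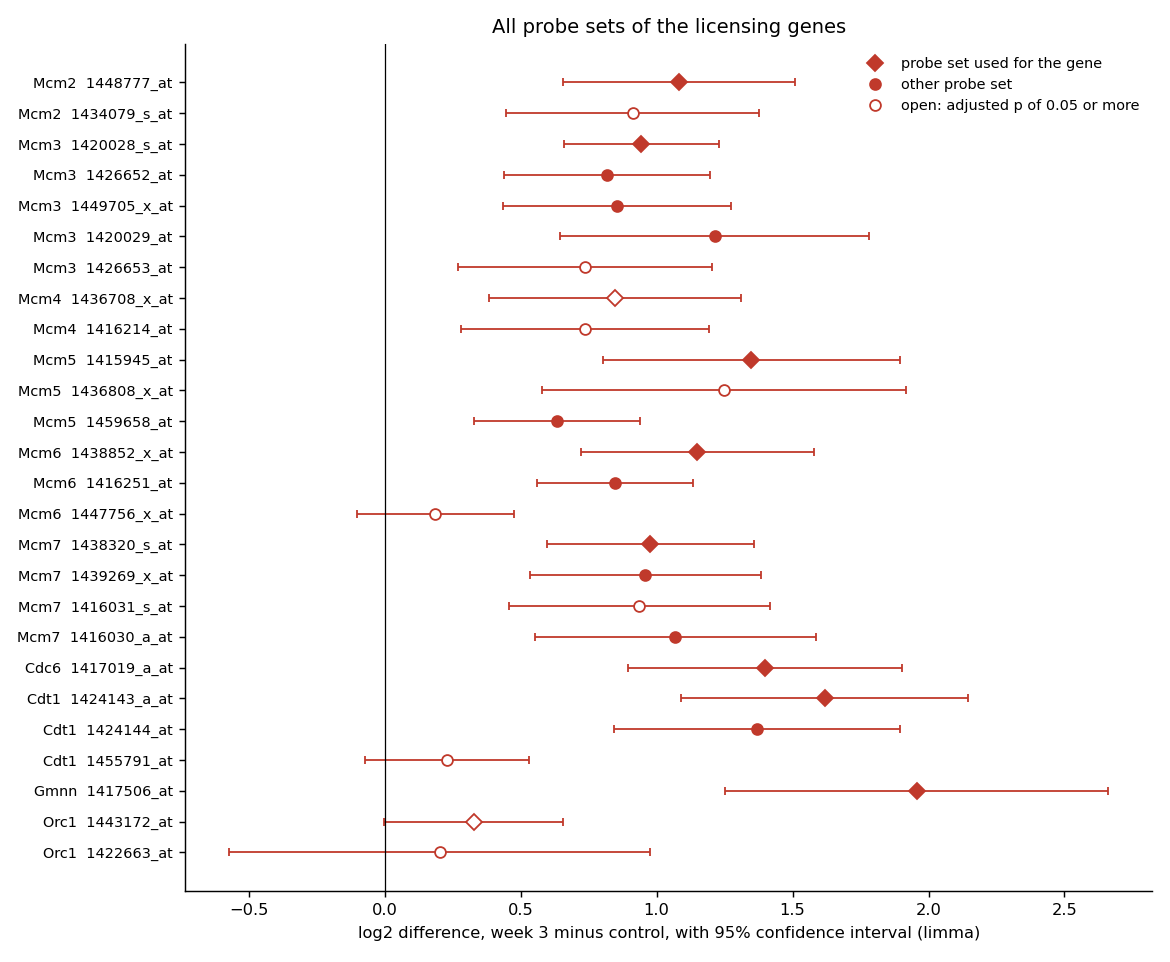
Log2 difference of week 3 from control (horizontal axis) with its 95% confidence interval from limma for the 26 probe sets of the licensing genes. Diamonds are the probe sets used for the genes, and open symbols have an adjusted p of 0.05 or more; all 26 points lie above 0, from 0.19 to 1.96.

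At weeks 1 and 2, no licensing gene passed the test. Against control, 0 of 10 passed at week 1, where 0.0110% of all genes rose, and 0 of 10 at week 2, where 0.104% rose. Without adjustment, also 0 of 10 had a p below 0.05 at either week, compared with 8.98% of all genes at week 1 and 10.5% at week 2. None passed under any alternative tried. Other probe sets of Mcm7 and Mcm3 did have an unadjusted p below 0.05 in limma, with no overlap with control. Their differences were 0.62 (Mcm7) and 0.37 (Mcm3) at week 1, and 0.45 (Mcm7), 0.39 and 0.40 (both Mcm3) at week 2. After adjustment, 0 of the 26 probe sets rose at either week. The log2 differences of the 10 genes were between -0.15 and 0.38 at week 1, with Gmnn, Orc1 and Mcm6 at the upper end (0.38, 0.38 and 0.35). For Orc1 the direction depended on the probe set, as its second one differed by -0.50 at week 1 (limma, adjusted p = 0.669). At week 2, the differences of the 10 genes were between -0.19 and 0.39, with Cdc6 highest. Between week 1 and week 2, 0 of 10 genes passed, and 0% of all genes rose. The differences ran from -0.51 for Orc1 to 0.54 for Cdc6, and 0 of the 10 had an unadjusted p below 0.05, as did 1192 of all genes. The second probe set of Orc1 went the other way, with a difference of 0.49 (limma, adjusted p = 0.854). The standard errors of the 10 genes in these 3 comparisons were between 0.10 and 0.27, so that differences of this size were not detectable with 3 arrays per group.

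Week 3 also stood above week 2 for most of the genes. Of the 10 genes, 6 were higher at week 3 than at week 2 and passed the test (Mcm2, Mcm3, Mcm5, Mcm6, Cdt1 and Gmnn), compared with 1.35% of all genes. The week 3 arrays lay above the week 2 arrays for all 10 genes, which held for 12.9% of all genes, and the median difference was 0.96. Cdt1 differed by 1.79 (standard error 0.23, adjusted p = 0.0228), Gmnn by 1.74 (standard error 0.26, adjusted p = 0.0312), Mcm5 by 1.51 (standard error 0.24, adjusted p = 0.0343) and Mcm2 by 1.27 (standard error 0.19, adjusted p = 0.0308). Mcm6 differed by 0.91 and Mcm3 by 0.79. The 4 genes that did not pass were Cdc6, whose week 2 arrays were themselves spread over 0.91 (difference 1.00, standard error 0.29, adjusted p = 0.151), Mcm4 (0.78, adjusted p = 0.099), Mcm7 (0.77, adjusted p = 0.0636) and Orc1 (0.46, adjusted p = 0.305). The count of 6 was 0 without any one of the week 2 arrays or without week 3 replicate 1, and 1, Cdt1, without week 3 replicate 2 or 3. Here too, the share of all genes that passed in these fits was not counted.

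Against week 1, week 3 was higher for 9 of the 10 genes with no overlap of the arrays, which held for 10.6% of all genes, and the median difference was 0.93. Gmnn alone passed the test, compared with 0.649% of all genes (difference 1.57, standard error 0.24, adjusted p = 0.0451). It did not pass when any single array was left out, in fits for which the share of all genes was not counted. More of the 10 genes passed in a single fit of all groups and with a trended and robust variance, as given below. Cdc6 differed by 1.55 (adjusted p = 0.0531) and Cdt1 by 1.40 (adjusted p = 0.0861). Without adjustment, 9 of 10 had a p below 0.05, as did 13.5% of all genes. Orc1 was the exception, with a difference of -0.05. Its second probe set differed by 0.70 with overlapping arrays (standard error 0.35, adjusted p = 0.448). The 3 comparisons of week 3 share the week 3 arrays, and the comparisons with control share the control arrays, so they are not independent of each other.

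In all, 9 of the 10 genes had week 3 arrays above all of the other 9, which held for 5.08% of all genes, and the exception was Orc1. For 6 of the 9 (Mcm2, Mcm3, Mcm5, Mcm6, Mcm7 and Cdt1), the next highest array was week 1 replicate 2. That array was the highest of week 1 in 8 of the 10 genes, while it was so in 42.5% of all genes. In it, the mean log2 signal of the 10 genes was 9.79, compared with 9.46 and 9.40 in replicates 1 and 3 of week 1 and with 9.27 to 9.45 in control.

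The week 3 arrays differed among themselves. Replicate 3 was the highest of the 3 for all 10 genes, which held for 33.6% of all genes, and replicate 1 was the lowest for 7 and replicate 2 for 3. The excess of replicate 3 over the mean of the other two ran from 0.05 for Orc1 through 0.77 for Cdt1 to 0.80 for Gmnn, with a median of 0.46, while over all genes the median excess was 0.00. The SD among the week 3 arrays was 0.50 for Gmnn, 0.45 for Cdt1, 0.42 for Cdc6, 0.17 to 0.35 for the helicase subunits and 0.05 for Orc1. The median SD of the members was 0.32 at week 3, 0.30 at week 1, 0.22 at week 2 and 0.21 in control, and that of all genes was between 0.13 and 0.18. Week 3 had the highest of the 4 SDs for 3 members, week 1 for 4, week 2 for 2 and control for 1, so a wider spread was not a feature of week 3 alone.

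The order of the week 3 arrays was not that of the endothelial or leukocyte markers. The mean log2 signal of the 10 genes was 10.31, 10.41 and 10.83 in replicates 1, 2 and 3, and that of 11 mitosis genes was 9.91, 9.61 and 10.62. The 12 pan-endothelial markers had means of 12.99, 12.95 and 12.90, and the 7 leukocyte markers 9.62, 9.53 and 9.47. Replicate 3 was highest in 20 of 24 genes of the fork and DNA synthesis, 11 of 11 mitosis genes, 9 of 13 genes of origin firing, 6 of 11 turnover genes and 4 of 13 origin and licensing partners. It was highest in 1 of 12 pan-endothelial markers, in 1 of 7 leukocyte markers and in 1 of 8 macrophage markers. The mural and epithelial markers, with 6 genes each, had their highest means in replicate 3 (9.12, 8.87 and 9.13 for mural cells, 8.42, 8.19 and 8.50 for epithelium). As for the groups, the mean of the leukocyte markers was between 8.99 and 9.55 in control, 8.32 and 9.01 at week 1, 8.43 and 9.07 at week 2, and 9.47 and 9.62 at week 3. That of the macrophage markers was between 8.92 and 9.12 in control and between 9.18 and 9.51 at week 3. Against control, 1 of 7 leukocyte markers rose at week 3 (Fcer1g, 0.60), as did 2 of 8 macrophage markers (C1qa and C1qb, 1.48 and 1.40), while Cd68, another macrophage marker, fell by 1.18. Of 3 markers of mast cells and basophils, Ms4a2 and Mcpt8 rose (1.57 and 1.02). Where markers of other lung cells passed against control, they were lower. This held for 2 of 6 for fibroblasts, 1 of 6 for mural cells, 4 of 6 for alveolar epithelium and 1 of 6 for other epithelium. Of the erythroid and platelet markers, 0 of 3 and 0 of 4 passed against control. Against the earlier weeks, the direction differed. At week 3, 1 of 6 fibroblast and 1 of 6 mural markers were higher than at week 2. Against week 1, 1 of 6 fibroblast and 3 of 4 platelet markers were higher. Against week 2, the leukocyte list had a median difference of 0.84, with 1 of 7 called. All 7 were above 0, and 6 had an unadjusted p below 0.05 in limma, as did 16.9% of all genes. The counts against week 1 were the same, with a median of 0.77, and there 13.5% of all genes had such a p. The part of these cells in the licensing signals was not tested.

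**Figure D4:**
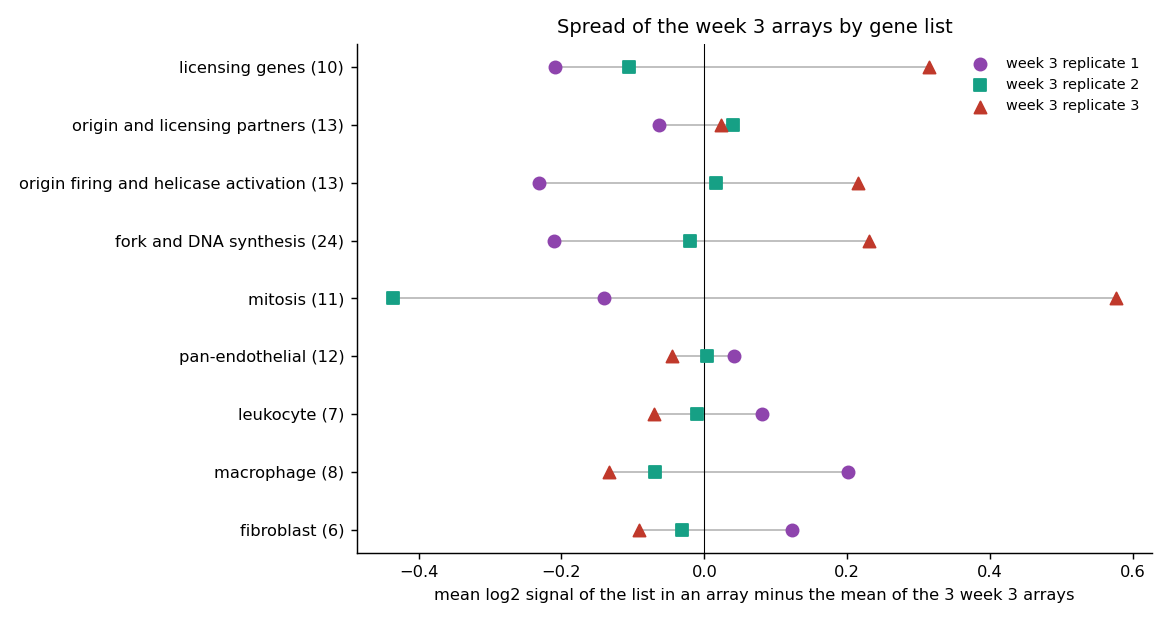
Mean log2 signal of each gene list in a week 3 array minus the mean over the 3 week 3 arrays (horizontal axis), with 1 point per array and the number of genes in brackets. Replicate 3 lies to the right for the licensing genes, where the means are 10.31, 10.41 and 10.83, and for mitosis, and to the left for the pan-endothelial, leukocyte and macrophage markers.

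Among the partners of the licensing genes at the origin, none passed the test. Of 13 such genes, 0 passed in limma at week 3 against control, 5 had an unadjusted p below 0.05, as did 21.4% of all genes, and the median difference was 0.05. The other subunits of the origin recognition complex had differences of -0.08 for Orc2, -0.03 for Orc3, 0.05 for Orc4, -0.09 for Orc5 and 0.38 for Orc6. The largest were those of Dbf4 and Cdc7, the subunits of the kinase that activates the loaded helicase (1.10 and 0.79, adjusted p = 0.0751 and 0.0625), and of Mcm8, a related helicase that acts in recombination (0.91, adjusted p = 0.0611). Mcm9, the partner of Mcm8, differed by -0.33 (adjusted p = 0.472).

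Of 13 genes of origin firing and helicase activation, 2 rose at week 3 against control, with a median of 0.26. Both encode subunits of GINS, which joins the MCM ring to form the active helicase, Gins1 with a difference of 1.35 (standard error 0.16, adjusted p = 0.00759) and Gins2 with 1.12 (standard error 0.23, adjusted p = 0.0422). The other subunits did not pass, Gins3 with 0.47 (adjusted p = 0.349) and Gins4 with -0.06 (adjusted p = 0.792). Cdc45, the other factor that joins the ring, had a difference of 0.09 (adjusted p = 0.892). Of 24 measured genes of the fork and DNA synthesis, 6 rose, with a median of 0.51. They were Pole, the catalytic subunit of DNA polymerase ε (1.27), the DNA ligase gene Lig1 (1.01), Chaf1b, a subunit of a histone chaperone (0.85), the fork protection genes Tipin and Clspn (0.76 and 0.75), and Pole2 (0.61). Against week 2, Gins1 rose in the firing list (1.30), and Pole, Chaf1b and Fen1, which trims the ends of Okazaki fragments, rose in the fork list (1.50, 0.96 and 0.71).

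Of 11 measured genes that govern the turnover of Cdt1, Cdc6 and geminin, 1 rose at week 3 against control, with a median of 0.40. This was Dtl, the adaptor through which a CUL4 ubiquitin ligase recognizes Cdt1, with a difference of 2.01 (standard error 0.23, adjusted p = 0.00643). The ligase subunits Cul4a, Cul4b and Ddb1 had differences of 0.11, 0.40 and 0.15 (adjusted p = 0.758, 0.1 and 0.499), and for Cul4b the week 3 arrays lay above those of control. Against week 2, Dtl (1.88) and Cdc20, an activator of the anaphase-promoting complex that degrades geminin (1.40), rose. The 11 mitosis genes had a higher median than the licensing genes, 2.09, and 9 of them rose. No gene of these 5 lists passed in limma at week 1 or week 2 against control, where the counts at an unadjusted p below 0.05 were 0 to 4 in a list.

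**Figure D5:**
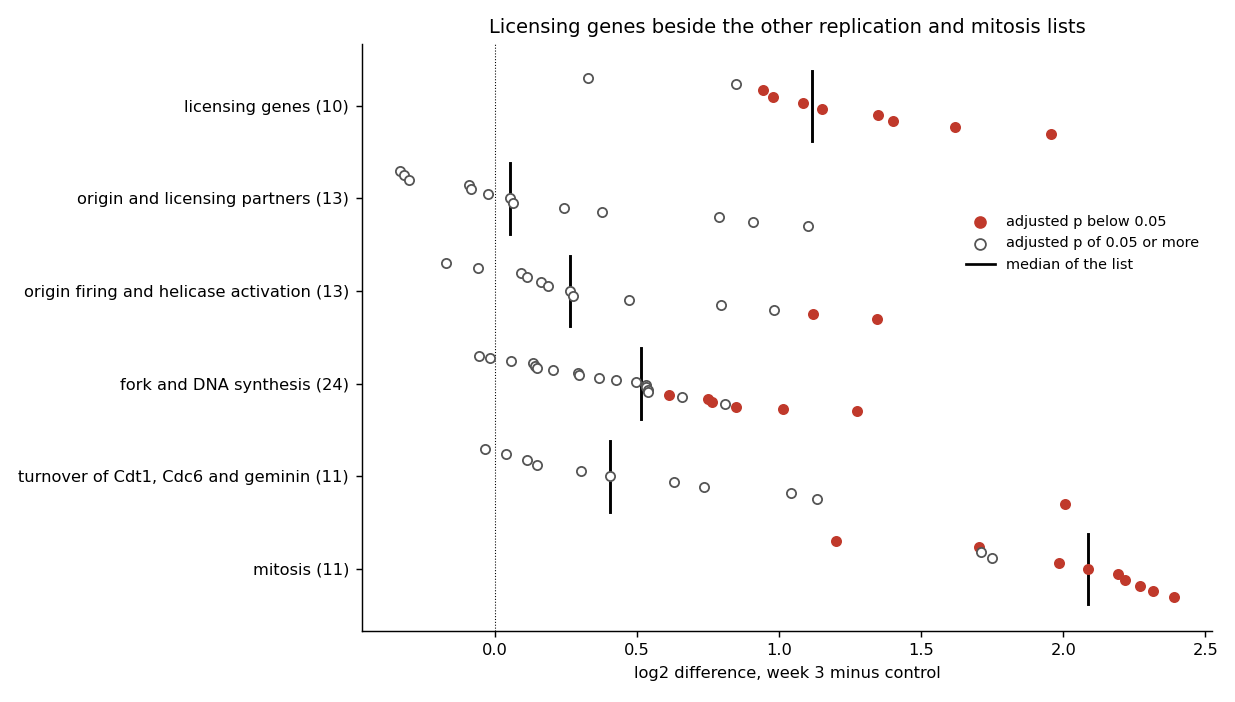
Log2 difference of week 3 from control (horizontal axis) for the licensing genes and 5 other lists, with the number of genes in brackets. Each point is 1 gene, filled at an adjusted p below 0.05, and vertical bars are the medians, which run from 0.05 for the origin and licensing partners through 1.12 for the licensing genes to 2.09 for mitosis.

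The genes whose pattern over the 12 arrays was most like that of the licensing genes were looked for among all 18183 others. Each gene was scaled to z-scores over the arrays, and likeness was the mean absolute difference from the mean z-score of the 10 members, which was between -0.74 and 0.20 in the 9 arrays of control and weeks 1 and 2, and 1.01, 1.21 and 1.91 in the week 3 arrays. The closest was Ncapd2, which encodes a condensin subunit, at 0.15, followed by Asf1b, a histone chaperone gene, at 0.16. Dlgap5, Shcbp1, Spc24 and Cdca2 lay at 0.19, Cdk1 and Rrm2 at 0.20, and H2ac19 and Slfn9 at 0.21, with a median of 1.02 over all genes compared. The highest of those 9 values, 0.20, was that of week 1 replicate 2. Of the members, each set against the mean of the others, Cdt1 lay closest at 0.18 and Orc1 farthest at 0.88. The remaining members lay between 0.24 for Mcm3 and 0.44 for Cdc6. All members except Cdt1 were thus farther than each of the 10 named genes, which were picked as the closest of 18183. Ncapd2 had log2 signals of 8.27 to 8.47 in control and 9.36, 9.38 and 10.06 at week 3.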

How the data were processed

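Total RNA of sorted lung ECs was labelled with a 3′ IVT kit from 500 pg and measured on 12 arrays. The deposited log2 values were made by the authors with robust multiarray average normalization in Chipster 3.8.0 and were used as deposited, with array medians of 8.12 to 8.13. Array controls (64 of 45101 probe sets) were set aside and no filter was applied. Of the 45037 probe sets tested, 34945 carry 1 gene symbol in the array annotation, 932 several and 9160 none. Genes were read from single-symbol probe sets, the one with the strongest mean signal, and 0 columns stayed unmapped.

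Each pair of groups was fitted on its own in limma 3.58.1 (R 4.3.3), with Benjamini–Hochberg correction over all probe sets and a threshold of 0.05, as the methods name an empirical Bayes test. The script was tested on simulated data. Promoter windows are from RefSeq, and the search ran in Python 3.11.15 with numpy 2.4.6, pandas 2.3.3 and matplotlib 3.10.9. The members and the gene lists were chosen with earlier results of these data known. Named genes were all members, up to 4 called genes of each list with the largest differences and those that differ in direction, the 10 most alike genes, and, chosen after their values were seen, the remaining called genes of the fork list, the origin recognition subunits, and the kinase, Mcm8, Mcm9, Cdc45, Gins3, Gins4, Cul4a, Cul4b and Ddb1. Ccnb1, Chaf1a and Skp1a had no single-symbol probe set under these symbols. Alternatives were a single fit of all groups, a replicate block, leaving out each array, values normalized again or centred, dim probe sets left out, no _x_at or _s_at probe sets, the mean of a gene's probe sets, a trended and robust variance, and array weights.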

Additional observations from a re-analysis of the deposited data

Results flagged for a closer look

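The effect at week 3 differed from that at an earlier week for 6 genes, by the direct test of one week against the other (limma, adjusted p below 0.05 over all probe sets). In each pair of effects the control arrays cancel. Against week 2, the difference between the effects was 1.79 for Cdt1, 1.74 for Gmnn, 1.51 for Mcm5, 1.27 for Mcm2, 0.91 for Mcm6 and 0.79 for Mcm3, and all 3 week 3 arrays lay above the 3 week 2 arrays. Against week 1, it was 1.57 for Gmnn, again with no overlap of the arrays.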

How the results depend on the processing

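Of 10 genes, 8 passed at week 3 against control and 2 to 8 when 1 array was left out. Against week 2, 6 passed, and 0 to 1 with 1 array left out; against week 1, 1 passed, and 0 with any array left out. With the replicate number as a block the counts were 3, 0 and 0. The numbers do not pair the arrays, since deviations of same-numbered arrays correlated by -0.10 to 0.06 and for 5 of 18 pairs the own number gave the highest correlation. Against week 1, a single fit of all groups gave 7, as did a trended and robust variance (7). The count was 4 with the mean of a gene's probe sets, 2 with array weights and 0 without _x_at and _s_at probe sets. The cause of these shifts was not tested, and the share of all genes that passed under each alternative was not counted. No difference at week 3 against control or week 2 changed sign under an alternative, and against week 1 only Orc1 did, in 2 fits. Leaving out dim probe sets removed Cdc6 and Orc1 from the test. Signal over background limits Orc1, Cdc6 and Gmnn, whose probe sets were below the median of all signals in most arrays, Gmnn in every array except those of week 3.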
